A study of Mus musculus with 18 samples.

Results

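The 35 genes described here encode proteins that detect damaged DNA, signal it to the cell cycle and repair it. They were picked by symbol from a count table of 23337 gene symbols, by a list of names and not by a threshold on their values, though with earlier results of these data known: 7 genes of checkpoint signalling, 12 of homologous recombination, 3 of the Fanconi anaemia pathway, 5 of end joining, 2 of single-strand break repair, 1 of mismatch repair, 4 of nucleotide excision repair and 1 of postreplication repair. All 35 were found in the table, and all 35 were among the 15482 genes that passed the filter on low counts. RNA was sequenced from mammary glands, dissected without their lymph nodes, of Cip2a-/- and WT mice of mixed C57BL/6Jx129 strain. Each of 6 groups held 3 libraries: Cip2a-/- and WT glands of untreated mice, Cip2a-/- and WT glands taken 2 weeks after the last of 6 weekly gavage doses of 1 mg DMBA (7,12-dimethylbenz[a]anthracene) in oil that began at 12 to 14 weeks of age, and Cip2a-/- and WT glands without a tumour, taken when a mouse was killed because of DMBA-induced tumours (the endpoint). No group received oil alone, so DMBA and its vehicle cannot be told apart. The age at the endpoint was not given, and no age of the untreated mice is at hand, so age was not accounted for in comparing the conditions. The labels do not say whether the 3 libraries of a group came from separate mice, so the p-values measure the spread between libraries.

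DMBA is a polycyclic aromatic hydrocarbon whose metabolites bind to bases and form bulky adducts. Nucleotide excision repair cuts such adducts out, stalled replication forks activate the kinase ATR and its effector CHK1, and broken ends are sensed by ATM and MDC1 and joined either by homologous recombination, which uses the sister chromatid, or by end joining, which does not. CIP2A, known as an inhibitor of the phosphatase PP2A, also binds TOPBP1, and the pair works with MDC1 to hold broken chromosomes together in mitosis. Many recombination, checkpoint and Fanconi anaemia genes are transcribed mainly in S and G2 phase under E2F factors, whereas most genes of end joining and excision repair are expressed throughout the cycle. By this background knowledge 18 of the 35 genes were counted as cycle-linked and 17 as not cycle-linked.

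The promoters of these genes were compared first, because E2F control is the feature by which many of them are known to rise together in dividing cells. The words TTTGGCGC, TTTCCCGC, TTTCGCGC and TTTGCCGC, which match the E2F motif, were searched on both strands from 250 bases before to 50 bases after the start of each gene (RefSeq, GRCm38.p6). Windows were at hand for 27 of the 35 genes. A word was found in 5 of 17 windows of cycle-linked genes (29.4%), namely those of Bard1, Brca2, Clspn, Msh6 and Topbp1, in 5 of 14 windows of genes that are not cycle-linked (35.7%), namely Chek2, Mdc1, Rad51c and Xrcc6, and in 744 of 32851 windows of all genes (2.26%). The words were thus no more frequent in the cycle-linked windows than in the other members' windows. The 60 bases around the word are shown for both partners of CIP2A, Topbp1 and Mdc1, for 2 cycle-linked recombination genes and for Chek2, which is not cycle-linked, with the word in capitals:
Topbp1 (chr9:103305172-103305231, plus strand): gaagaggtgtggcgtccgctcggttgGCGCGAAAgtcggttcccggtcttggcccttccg
Mdc1 (chr17:35841438-35841497, plus strand): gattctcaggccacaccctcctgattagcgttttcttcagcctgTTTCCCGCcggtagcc
Brca2 (chr5:150522427-150522486, plus strand): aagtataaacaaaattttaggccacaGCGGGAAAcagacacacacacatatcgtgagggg
Bard1 (chr1:71103148-71103207, minus strand): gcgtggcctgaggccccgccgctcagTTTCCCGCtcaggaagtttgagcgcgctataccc
Chek2 (chr5:110839805-110839864, plus strand): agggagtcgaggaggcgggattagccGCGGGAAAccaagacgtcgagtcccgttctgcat
The word begins 129 bases before the annotated start in Topbp1, 16 in Mdc1, 168 in Brca2, 209 in Bard1 and 152 in Chek2. A match of letters is not a measured binding site.

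The libraries held 16121743 to 24586404 counts. Cip2a, listed under its older symbol C330027C09Rik, had 2, 0 and 0 reads over the Cip2a-/- libraries of the untreated, 2-week and endpoint groups, against 86, 203 and 202 reads over the WT libraries, so it followed the genotype labels. These are whole glands: epithelial markers were present in every library, and other tissues varied widely between glands of one group. WT endpoint library 1 stood apart, with the lowest summed level of 12 epithelial markers (173 CPM, read counts scaled for library depth, against 812 to 5260 CPM in the other 17 libraries) and the highest of 10 B cell markers (2650 CPM, against 6.17 to 1040 CPM). Cip2a-/- untreated library 3 had the next highest B cell level, 1040 CPM. Fewer cells of a type and less RNA per cell cannot be told apart in such data.

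Per kilobase of transcript, the 4 excision repair and 2 single-strand break repair genes were the most abundant of the 35, and the lowest were of several roles. Median levels over the 18 libraries were 24.4 CPM per kilobase for Ercc1, which encodes a subunit of the nuclease that cuts on the 5′ side of an adduct, 20.1 for Xrcc1, the scaffold of single-strand break repair, and 19.2 for Parp1, the sensor of DNA breaks that makes poly(ADP-ribose). Ddb2 and Xpc, which recognise damaged bases, and Xpa, which verifies the damage, followed at 17.1, 12.3 and 15.3. Brca1 stood at 0.439 and Chek1 at 0.430. The lowest were Brip1, a helicase partner of BRCA1, at 0.287, Polq, the polymerase of microhomology-mediated end joining, at 0.165, and Exo1, the nuclease that resects ends, at 0.151. Counts were accordingly thin for some members, with only 3 reads for Exo1 and 5 for Polq in their lowest library.

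Members of the same role varied to very different degrees between the 18 libraries. The steadiest member was Nbn, a subunit of the complex that first binds broken ends, whose highest CPM was 1.5 times its lowest. Atr followed at 1.72 times, Xpc at 1.97 and Topbp1 at 1.98. At the other end, the highest CPM was 39.2 times the lowest for Exo1, 22.9 times for Clspn, which encodes the adaptor between ATR and CHK1, 13.6 times for Polq and 11.6 times for Rad54l, a motor protein of strand exchange. Of the 18 cycle-linked genes, 6 were highest in Cip2a-/- untreated library 2, 6 in Cip2a-/- untreated library 3 and 3 in WT endpoint library 1, and 6 were lowest in Cip2a-/- endpoint library 2. Those 4 libraries were the highest for 2.71%, 4.36% and 16.1% and the lowest for 6.00% of all genes tested.

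**Figure D1:**
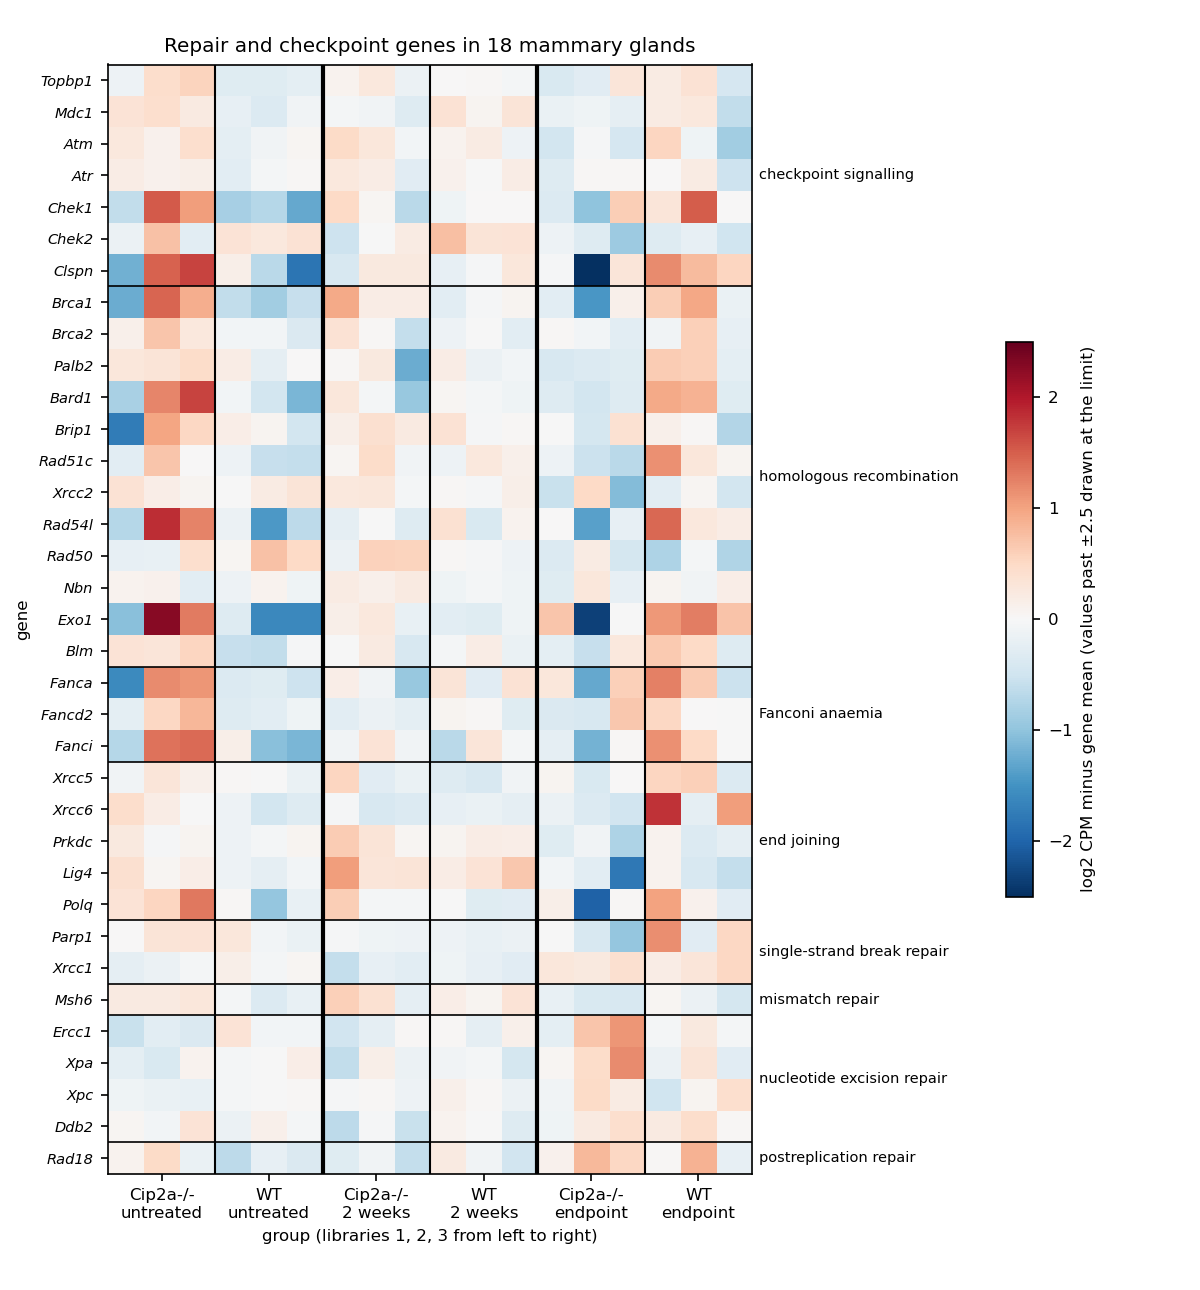
Centred log2 CPM of the 35 genes (rows, grouped by role) in the 18 libraries (columns, 3 per group, Cip2a-/- left of WT in each condition), with colour as the difference from the gene's mean. Cycle-linked genes such as Clspn, Exo1 and Rad54l are high in Cip2a-/- untreated libraries 2 and 3 and low in Cip2a-/- endpoint library 2, while Nbn, Atr and Xpc vary little.

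Between endpoint and 2-week glands, averaged over the genotypes, 4 of the 35 genes were called (edgeR quasi-likelihood test, adjusted p under 0.05 over all genes), 1 higher and 3 lower at the endpoint. This is 11.4% of the members beside 13.4% of all genes tested (6.41% higher and 6.94% lower), so the share of members called was near the background. The single-strand break repair gene Xrcc1 rose, and the end joining genes Lig4 and Prkdc and the mismatch repair gene Msh6 fell. The median log2 fold change was 0.12 over the members and 0.05 over all genes.

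Xrcc1 (GRCm38 chromosome 7, 24546289 to 24573440, plus strand) had 64.0, 61.7 and 68.6 CPM in Cip2a-/- endpoint glands and 59.2, 64.3 and 74.6 CPM in WT endpoint glands, against 34.5, 45.1 and 43.5 CPM in Cip2a-/- and 48.7, 45.5 and 43.1 CPM in WT glands at 2 weeks. Every endpoint library lay above every 2-week library, as for 2.67% of all genes. Its log2 fold change was 0.59 ± 0.089 (SE; adjusted p = 0.0035). It was 0.66 ± 0.13 in Cip2a-/- and 0.53 ± 0.13 in WT glands, with adjusted p = 0.0586 and 0.0685 within each genotype.

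Lig4 (chromosome 8, 9969049 to 9977686, minus strand) encodes the ligase of end joining. It had 6.77, 5.91 and 1.99 CPM in Cip2a-/- and 7.60, 5.38 and 4.68 CPM in WT endpoint glands, against 14.8, 8.85 and 8.95 CPM in Cip2a-/- and 8.19, 9.07 and 11.4 CPM in WT glands at 2 weeks. The endpoint libraries all lay below the 2-week ones, as for 3.49% of all genes, and the log2 fold change was -0.92 ± 0.26 (adjusted p = 0.0323). The lowest value, that of Cip2a-/- endpoint library 3, stood well under the other 5 endpoint libraries.

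Prkdc (chromosome 16, 15637866 to 15842235, plus strand) encodes the catalytic subunit of the DNA-dependent protein kinase. It had 17.1, 20 and 12.3 CPM in Cip2a-/- and 22.6, 16.7 and 18.1 CPM in WT endpoint glands, against 32.7, 26.4 and 21.9 CPM in Cip2a-/- and 22.2, 24 and 23.8 CPM in WT glands at 2 weeks. The groups touched only where WT endpoint library 1 exceeded the lowest 2-week libraries. The log2 fold change was -0.50 ± 0.14 (adjusted p = 0.0296), with -0.71 ± 0.19 in Cip2a-/- and -0.28 in WT glands.

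Msh6 (chromosome 17, 87975062 to 87990892, plus strand) encodes a sensor of mismatched bases. It had 25.9, 22.5 and 22.4 CPM in Cip2a-/- and 30.3, 26.5 and 21.7 CPM in WT endpoint glands, against 44.8, 38.6 and 25.2 CPM in Cip2a-/- and 33.1, 31.1 and 37.4 CPM in WT glands at 2 weeks. The groups overlapped through Cip2a-/- 2-week library 3 alone, and the log2 fold change was -0.49 ± 0.13 (adjusted p = 0.0272). Within genotypes Msh6 and Lig4 had adjusted p of 0.0972 and 0.107 in Cip2a-/- and of 0.253 and 0.267 in WT glands.

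**Figure D2:**
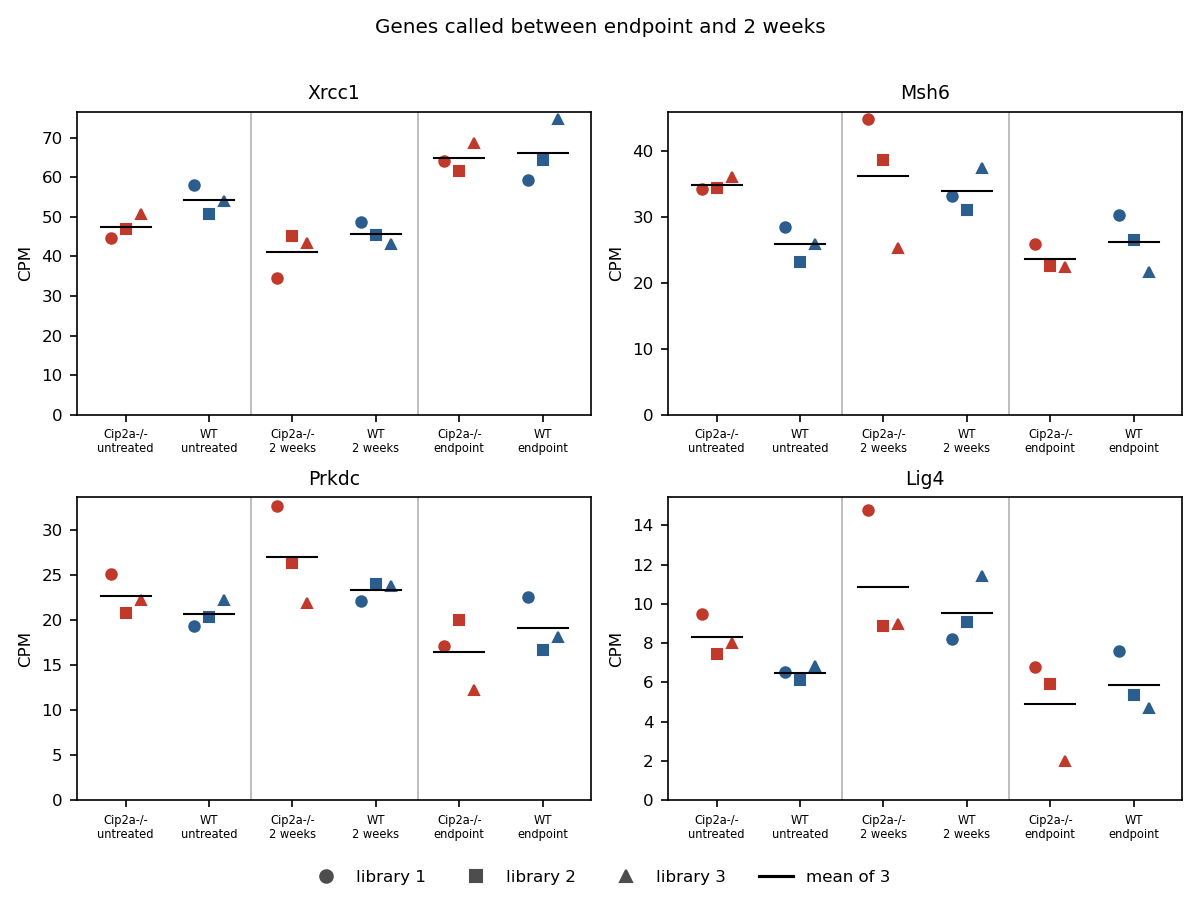
CPM of Xrcc1, Msh6, Prkdc and Lig4 in each library (points, shape by library number) with the group mean (line), Cip2a-/- in red and WT in blue. All 6 endpoint libraries exceed the 6 libraries of 2 weeks for Xrcc1, at 59.2 CPM or more, all 6 lie below them for Lig4, at 7.60 CPM or less, and the ranges overlap for Msh6 and Prkdc.

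In the median, members lower at the endpoint had longer transcripts than members higher there. At an unadjusted p under 0.05, 6 members were higher (15.6% of all genes), with transcripts of 955 to 3296 bases (median 2042.5). Another 5 were lower (14.6% of all genes), with transcripts of 2276 to 12647 bases (median 5028), so the ranges overlapped. Single members departed from this order: Brca2 (10724 bases) was at 0.10 and Chek2 (2276 bases) at -0.58. The association of length with the differences over the members was not tested. The slope of expression on transcript length, in log2 units per doubling of length, was 0.001 to 0.152 in the 6 libraries of 2 weeks and -0.188 to -0.009 in the 6 endpoint libraries, without overlap. With the length and GC trend of each library removed, 7.38% of all genes and 3 members were called: Xrcc1 at 0.37 ± 0.073 (adjusted p = 0.0154), Atr at 0.41 ± 0.11 (adjusted p = 0.0351) and Brca2, a gene of homologous recombination, at 0.69 ± 0.19 (adjusted p = 0.0459), all higher. Lig4 and Msh6 were then at -0.50 and -0.32 (adjusted p = 0.210 and 0.118), and Prkdc turned from lower to a log2 fold change of 0.07 (adjusted p = 0.793). Topbp1, Mdc1, Atm, Atr, Brca1, Brip1, Rad51c and Nbn also changed from negative to positive values, Atr from -0.15 to the called 0.41. Xrcc1 was called under all 27 alternatives tried, Lig4 under 20, Msh6 under 19 and Prkdc under 18. These include leaving out each of the 6 untreated libraries, which have no weight in this contrast, and all 4 genes stayed called in each. With the compared groups alone Lig4, Msh6 and Prkdc were not called (adjusted p = 0.0976, 0.0866 and 0.091 by edgeR).

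**Figure D3:**
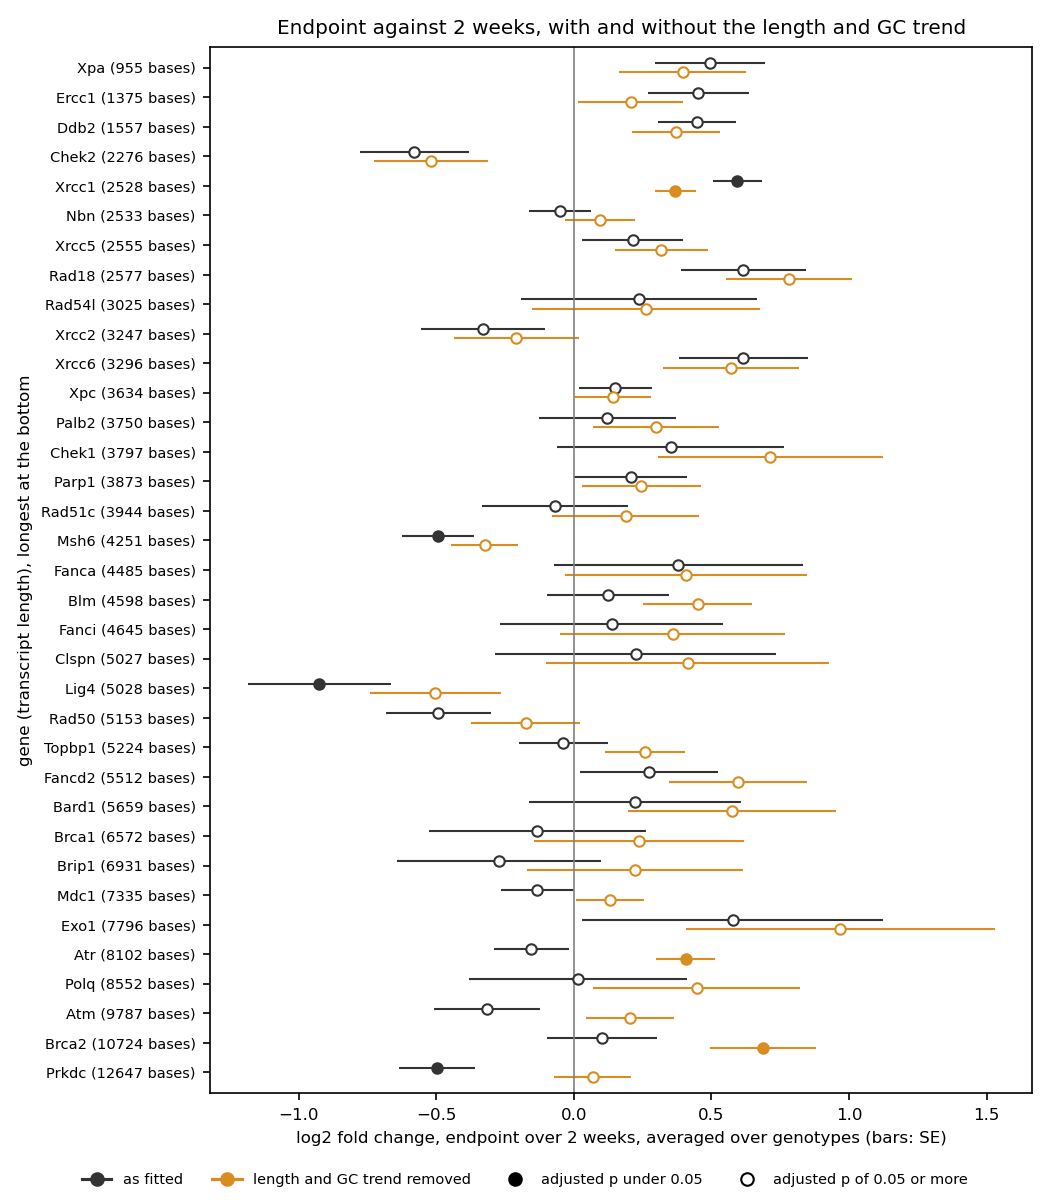
Log2 fold change of endpoint over 2-week glands for the 35 genes, ordered by transcript length (shortest on top), as fitted (dark) and with the length and GC trend removed (orange). Bars are standard errors and filled points have an adjusted p under 0.05. The longest transcripts shift most to the right when the trend is removed, Prkdc from -0.50 to 0.07, and Xrcc1 is the 1 gene with a filled point in both.

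Removing single libraries bore on the same calls. Without WT 2-week library 3 or Cip2a-/- 2-week library 1 only Xrcc1 was called. Without WT 2-week library 1 the calls were Lig4 and Xrcc1, without WT 2-week library 2 Msh6 and Xrcc1, without WT endpoint library 3 Ddb2 and Xrcc1, and without Cip2a-/- endpoint library 3 Lig4 and Xrcc1. Without Cip2a-/- 2-week library 2 Msh6 was lost and Ddb2 gained, and without WT endpoint library 2 Lig4 and Prkdc were lost and Rad50 and Xrcc6 gained. Without Cip2a-/- endpoint library 1 there were 7 calls, which added Ddb2, Ercc1 and Xpa. There were 5 without WT endpoint library 1, Cip2a-/- endpoint library 2 or Cip2a-/- untreated library 2, which added Atm, Xrcc2 and Chek2 in that order.

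The 7 further members at an unadjusted p under 0.05 came from several roles. In order of p they were Ddb2 at a log2 fold change of 0.45 ± 0.14 (adjusted p = 0.0505), Chek2, the effector kinase of ATM, at -0.58 ± 0.20 (adjusted p = 0.0660), Rad18 at 0.62 ± 0.23 (adjusted p = 0.0853), Xrcc6 at 0.62 ± 0.23 (adjusted p = 0.0927), Rad50 at -0.49 ± 0.19 (adjusted p = 0.101), Xpa at 0.50 ± 0.20 (adjusted p = 0.110) and Ercc1 at 0.45 ± 0.18 (adjusted p = 0.114). With the length and GC trend removed, Rad50 was at -0.17 ± 0.20, Xpa at 0.40 ± 0.23 and Ercc1 at 0.21 ± 0.19, none of them under an unadjusted p of 0.05.

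In untreated glands, Cip2a-/- against WT, 0 members and 0% of all genes were called by edgeR, and DESeq2 and limma voom called 0 members as well. Even Cip2a itself was not called there by edgeR (log2 fold change -5.00 ± 0.74, adjusted p = 0.568), so an absence of calls says little about differences. There were 11 members higher in Cip2a-/- glands and 0 lower at an unadjusted p under 0.05, beside 1.72% of all genes higher and 0.549% lower (2.27% together). Of the 11, 10 were cycle-linked. The median log2 fold change was 0.93 over the 18 cycle-linked genes, all of them positive, 0.14 over the other 17 and 0.04 over all genes.

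Chek1, the effector kinase of ATR, had 1.02, 4.90 and 3.47 CPM in Cip2a-/- and 0.867, 0.949 and 0.609 CPM in WT untreated glands. Its values did not overlap, but Cip2a-/- library 1 lay close to the WT range while libraries 2 and 3 were several times higher. The log2 fold change was 1.94 ± 0.61 (adjusted p = 1 by edgeR). Exo1 had 0.538, 6.33 and 3.19 CPM in Cip2a-/- and 0.954, 0.335 and 0.332 CPM in WT untreated glands, a log2 fold change of 2.60 ± 0.82 (adjusted p = 1 by edgeR). Here Cip2a-/- library 1 fell within the WT range.

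Brca1, the ubiquitin ligase that directs ends to recombination, had the same pattern. It stood at 1.14, 7.98 and 5.39 CPM in Cip2a-/- and 1.82, 1.51 and 1.88 CPM in WT untreated glands, with library 1 of the Cip2a-/- group below all WT libraries (log2 fold change 1.47 ± 0.57). Rad54l had 0.897, 5.83 and 3.76 CPM in Cip2a-/- and 1.39, 0.502 and 0.941 CPM in WT untreated glands. Of the other cycle-linked genes, Bard1, the partner of BRCA1, had a log2 fold change of 1.59 ± 0.56, Fanci, a part of the clamp that holds DNA at crosslinks, 1.58 ± 0.58, Clspn 1.71 ± 0.74 and Blm, a helicase that dissolves recombination intermediates, 0.80 ± 0.32.

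Cell cycle genes were also highest in Cip2a-/- untreated libraries 2 and 3 among these 6 glands. The proliferation marker Mki67 stood at 5.38, 54.2 and 81.0 CPM in Cip2a-/- and 22.8, 11.4 and 8.42 CPM in WT untreated glands. The summed level of 30 genes of G2 and M phase was 62.6, 387 and 426 CPM in Cip2a-/- and 152, 108 and 81.7 CPM in WT glands, and that of 30 S phase genes was 277, 713 and 751 CPM in Cip2a-/- and 404, 329 and 301 CPM in WT glands. B cell markers summed to 350, 34.4 and 1040 CPM in Cip2a-/- and 711, 73.7 and 31.2 CPM in WT glands, so they were high in 1 of the 2 Cip2a-/- glands with high repair genes and low in the other. The part of the dividing cells and of the B cells in the repair gene values was not tested. The 11 members at an unadjusted p under 0.05 became 4 without Cip2a-/- untreated library 2, 5 higher and 1 lower without library 3, 14 without library 1, 5 without WT untreated library 2 and 7 without WT untreated library 3. They became 7 with the length and GC trend removed.

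**Figure D4:**
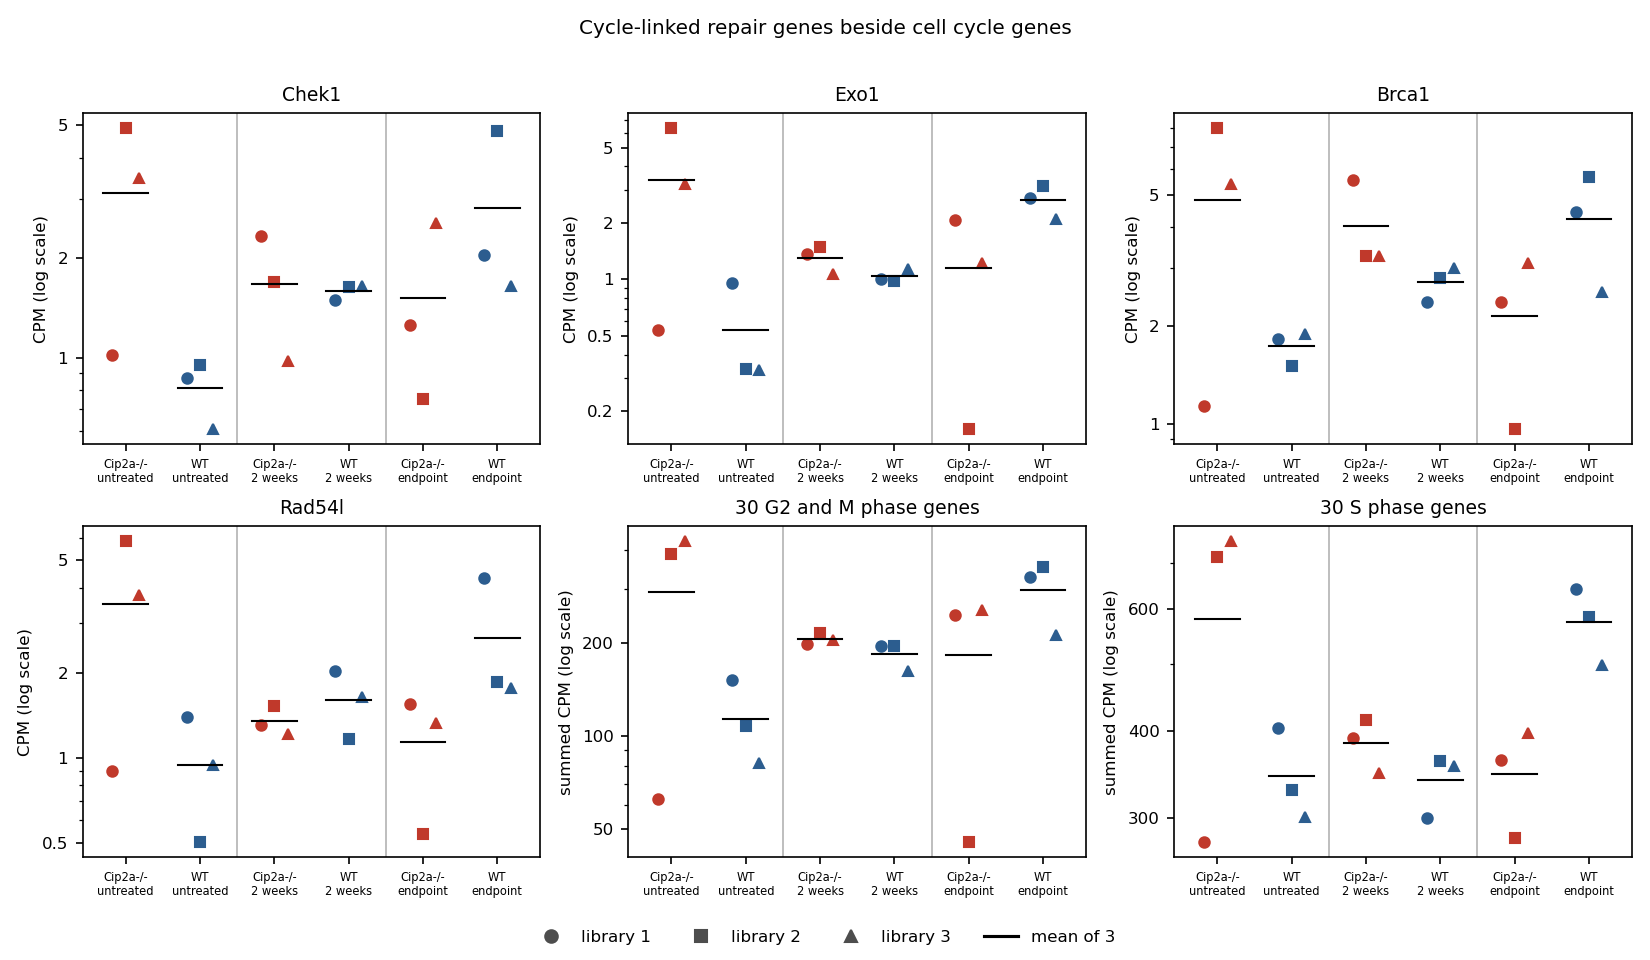
CPM of the cycle-linked genes Chek1, Exo1, Brca1 and Rad54l and summed CPM of 30 G2 and M phase and 30 S phase genes in each library (points; lines are means of 3; log scale), Cip2a-/- in red and WT in blue. Cip2a-/- untreated libraries 2 and 3 are high and library 1 is low in every panel, and Cip2a-/- endpoint library 2 is the lowest endpoint library in every panel.

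The partners of CIP2A were steadier. Topbp1 had 28.9, 43.0 and 46.5 CPM in Cip2a-/- and 25.5, 25.6 and 26.7 CPM in WT untreated glands (log2 fold change 0.60 ± 0.23, adjusted p = 1 by edgeR). Mdc1, the adaptor that reads the histone mark at breaks, had 49.1, 51.5 and 45.1 CPM in Cip2a-/- and 33.7, 30.5 and 36.6 CPM in WT untreated glands (log2 fold change 0.53 ± 0.19, adjusted p = 1 by edgeR). For both genes all 3 Cip2a-/- libraries lay above all 3 WT libraries, and unlike Chek1 and Brca1, Mdc1 was as high in Cip2a-/- library 1 as in libraries 2 and 3. In all, 13 members lay without overlap above WT (5.94% of all genes did so), among them Atm, Atr, Xrcc6, Lig4 and Msh6, and 2 below (6.50% of all genes), Ercc1 and Xpc. Ercc1 had 23.6, 29.3 and 27.4 CPM in Cip2a-/- and 44.5, 33.3 and 33.6 CPM in WT glands. Xpc had 41.7, 40.0 and 40.0 CPM in Cip2a-/- and 43.7, 44.8 and 46.2 CPM in WT glands, a difference smaller than those of the cycle-linked genes but with little spread.

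At 2 weeks after DMBA, Cip2a-/- against WT, 0 members were called, beside 0.00646% of all genes, and DESeq2 and limma voom called 0 members. The 0.00646% was Cip2a alone (adjusted p = 0.0281 by edgeR). A single gene, 1 of the 35, was at an unadjusted p under 0.05, on the lower side (1.09% of all genes were lower, 1.34% higher and 2.44% either). That gene was Mdc1, with 37.2, 36.3 and 30.8 CPM in Cip2a-/- and 49.7, 40.6 and 48.4 CPM in WT glands (log2 fold change -0.41 ± 0.19, adjusted p = 1 by edgeR), in the opposite direction to untreated glands. Its partner Topbp1 had 33.4, 37.8 and 28.4 CPM in Cip2a-/- and 31.8, 32.2 and 30.7 CPM in WT glands, which overlapped. Chek2 had 9.32, 13.2 and 15.4 CPM in Cip2a-/- and 22.5, 16.6 and 17 CPM in WT glands (log2 fold change -0.57 ± 0.28, adjusted p = 1 by edgeR). The count of 1 ranged from 0 to 2 over the libraries left out, and was 0 without 9 of the 18, WT 2-week libraries 1 and 3 among them.

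The cycle-linked genes differed little between the genotypes at this time, with a median log2 fold change of 0.07. Brca1 had 5.55, 3.26 and 3.25 CPM in Cip2a-/- and 2.36, 2.79 and 2.99 CPM in WT glands, and Chek1 had 2.33, 1.69 and 0.974 CPM in Cip2a-/- and 1.49, 1.63 and 1.64 CPM in WT glands. Brca1, Nbn and Parp1 lay without overlap above WT, and Mdc1 and Chek2 below (6.76% and 6.41% of all genes). Mki67 was 32.4, 26.9 and 26.9 CPM in Cip2a-/- and 24.9, 26 and 21.1 CPM in WT glands, a narrow range beside that of the untreated glands.

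At the endpoint, Cip2a-/- against WT, edgeR called 0 members, beside 0.00646% of all genes, which was Cip2a alone (adjusted p = 0.0276). Limma voom also called 0, while DESeq2 called 1, Xrcc6 (log2 fold change -1.40 ± 0.35, adjusted p = 0.0302). Of the 35, 2 were higher at an unadjusted p under 0.05, both of excision repair, and 3 lower, of end joining, single-strand break repair and recombination, beside 4.05% of all genes higher and 6.67% lower (10.7% together). The median log2 fold change was -0.25 over the members, -0.66 over the cycle-linked genes and -0.02 over all genes.

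Xrcc6 encodes KU70, a subunit of the ring that binds broken ends. It had 35.8, 31.3 and 28.4 CPM in Cip2a-/- and 138, 33.8 and 82.0 CPM in WT endpoint glands (log2 fold change -1.41 ± 0.34, adjusted p = 0.458 by edgeR). WT libraries 1 and 3 stood above all other 16 libraries, and WT library 2 lay within the Cip2a-/- range. Parp1 had 79.0, 59.9 and 40.4 CPM in Cip2a-/- and 177, 64.7 and 113 CPM in WT endpoint glands (log2 fold change -0.98 ± 0.29, adjusted p = 0.458 by edgeR), with the same 2 WT libraries on top.

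B cell markers followed the same order in the WT glands, with summed levels of 72.1, 13.9 and 38.6 CPM in Cip2a-/- and 2650, 14.8 and 543 CPM in WT endpoint glands, and all 10 of them were lower in Cip2a-/- glands at an unadjusted p under 0.05. In untreated glands B cell markers summed to 350, 34.4 and 1040 CPM in Cip2a-/- and 711, 73.7 and 31.2 CPM in WT libraries. Parp1 had 80.3, 99.1 and 101 CPM in Cip2a-/- and 96.8, 75.2 and 70.4 CPM in WT untreated glands. It thus followed the order of the B cell markers in WT but not in Cip2a-/- untreated glands. Xrcc6 had 53.7, 44.9 and 39.3 CPM in Cip2a-/- and 36.1, 28.9 and 31.7 CPM in WT untreated glands, which followed that order in neither genotype. WT endpoint library 1 also held the highest sum of 5 brown fat markers, 8420 CPM, and 38300 CPM of 8 skeletal muscle markers. The part of B cells or other tissues in the values of Xrcc6 and Parp1 was not tested. Without WT endpoint library 2 edgeR called Xrcc6 (log2 fold change -1.79 ± 0.21, adjusted p = 0.0105). The 5 members at an unadjusted p under 0.05 became 2 without WT endpoint library 1, 10 without WT endpoint library 3 and 3 without WT untreated library 1 or WT 2-week library 2.

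The 2 members higher in Cip2a-/- glands at an unadjusted p under 0.05 were Ercc1 and Xpa. Ercc1 had 29.7, 56.7 and 75.5 CPM in Cip2a-/- and 34.0, 41.5 and 33.6 CPM in WT endpoint glands (log2 fold change 0.57 ± 0.26, adjusted p = 0.460 by edgeR). Xpa had 15.6, 21.0 and 34.6 CPM in Cip2a-/- and 13.8, 19.0 and 12.5 CPM in WT endpoint glands (log2 fold change 0.66 ± 0.28, adjusted p = 0.458 by edgeR). Both genes were highest of all 18 libraries in Cip2a-/- endpoint library 3 and overlapped between the genotypes. Ddb2 had 24.5, 31.0 and 35.4 CPM in Cip2a-/- and 31.2, 36.1 and 27.0 CPM in WT glands, and Xpc had 42.5, 63.4 and 52.3 CPM in Cip2a-/- and 32.1, 47.6 and 60.2 CPM in WT glands, each with overlap.

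Rad51c, a gene of homologous recombination, had a log2 fold change of -1.07 ± 0.38 (adjusted p = 0.458) and lay below WT in every library, as did Clspn, Palb2, Bard1, Rad54l and Exo1 (3.02% of all genes did so). Brca1 had 2.36, 0.967 and 3.10 CPM in Cip2a-/- and 4.44, 5.69 and 2.53 CPM in WT endpoint glands. Chek1 had 1.25, 0.752 and 2.54 CPM in Cip2a-/- and 2.03, 4.80 and 1.64 CPM in WT glands. Topbp1 had 24.4, 26 and 38.8 CPM in Cip2a-/- and 36.4, 40.6 and 23.5 CPM in WT glands, and Mdc1 had 34.5, 35.8 and 33.1 CPM in Cip2a-/- and 44.5, 46.5 and 25.1 CPM in WT glands. In these last 4 genes the genotypes overlapped. Cip2a-/- endpoint library 2, in which 6 cycle-linked genes were at their lowest, had 1.02 CPM of Mki67, against 29.3 and 64.5 CPM in the other Cip2a-/- glands and 51.2, 43.6 and 27.9 CPM in WT glands. The share of dividing cells behind this was not tested.

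**Figure D5:**
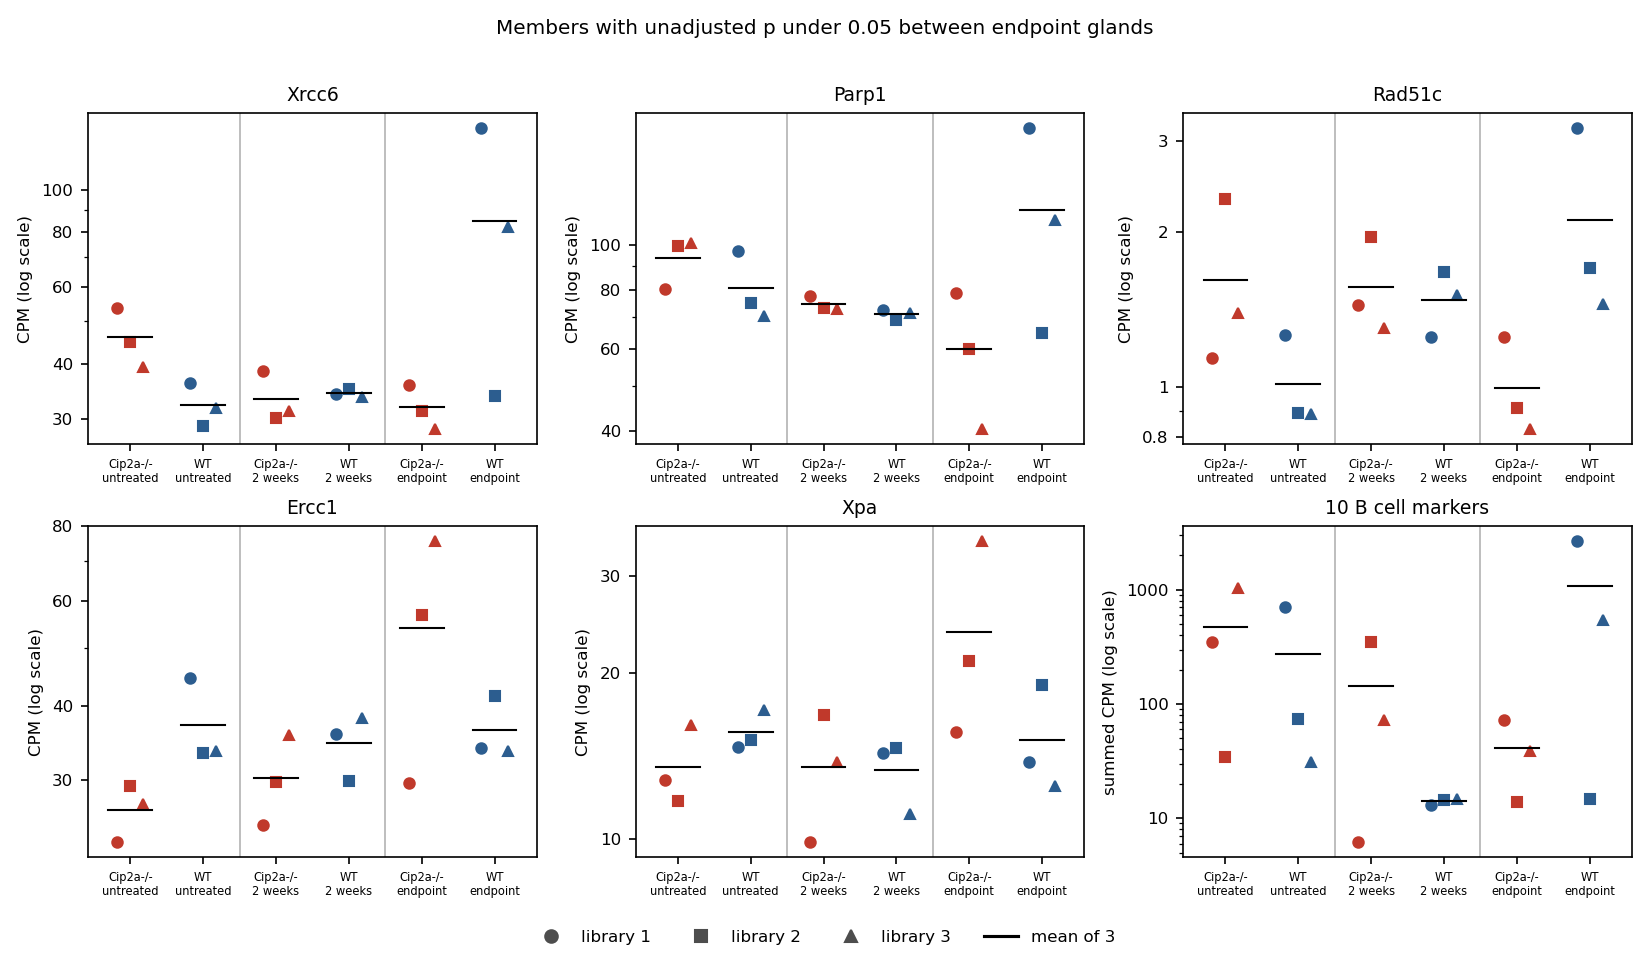
CPM of the 5 members at an unadjusted p under 0.05 between Cip2a-/- and WT endpoint glands, and summed CPM of 10 B cell markers, in each library (points; lines are means of 3; log scale). Xrcc6 and Parp1 are highest in WT endpoint libraries 1 and 3, which also hold 2650 and 543 CPM of the B cell markers. Cip2a-/- untreated library 3 and WT untreated library 1 hold 1040 and 711 CPM of these markers, with Xrcc6 at 39.3 and 36.1 CPM and Parp1 at 101 and 96.8 CPM. Ercc1 and Xpa are highest in Cip2a-/- endpoint library 3.

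The response to DMBA at 2 weeks was measured against untreated glands of the same genotype. Averaged over the genotypes, 0 members were called, beside 0.0258% of all genes (0.0194% higher), and DESeq2 and limma voom called 0 members. Xrcc1 was the 1 member at an unadjusted p under 0.05, on the lower side, where 3.16% of all genes lay (3.40% were higher and 6.57% either). No member separated the 6 libraries of 2 weeks from the 6 untreated ones, as 0.711% of all genes did on the higher and 0.284% on the lower side. Xrcc1 had 34.5, 45.1 and 43.5 CPM in Cip2a-/- and 48.7, 45.5 and 43.1 CPM in WT glands at 2 weeks, against 44.7, 46.9 and 50.8 CPM in Cip2a-/- and 58.0, 50.6 and 53.9 CPM in WT untreated glands (log2 fold change -0.23 ± 0.089, adjusted p = 0.719 by edgeR). The ranges overlapped. The median log2 fold change of the members was -0.08.

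Genes induced by p53 were high in the same glands. The summed level of 20 p53 target genes was 4330, 2720 and 2080 CPM in Cip2a-/- and 1250, 1660 and 2760 CPM in WT glands at 2 weeks. Untreated glands had 1040 to 1150 CPM in Cip2a-/- and 1030 to 1220 CPM in WT, so WT 2-week library 1 lay close to them. Of the 20, 15 were higher at an unadjusted p under 0.05 (3.40% of all genes) and 1 was called (0.0258% of all genes). Their median log2 fold change was 0.99. Ddb2 and Xpc are known as p53 targets in human cells and are not among those 20, whereas Polk, a further repair gene described below, is. Ddb2 had 16.8, 26 and 18 CPM in Cip2a-/- and 28.2, 26.4 and 21.1 CPM in WT glands at 2 weeks, against 27.5, 25.4 and 33.4 CPM in Cip2a-/- and 24, 28.9 and 25.6 CPM in WT untreated glands. Its log2 fold change was -0.28 ± 0.14 (adjusted p = 0.749 by edgeR), so the fitted value lay below 0. Xpc had 44.3, 45.9 and 41.4 CPM in Cip2a-/- and 49.5, 46.4 and 40.8 CPM in WT glands at 2 weeks, against 41.7, 40.0 and 40.0 CPM in Cip2a-/- and 43.7, 44.8 and 46.2 CPM in WT untreated glands, with overlap in both genotypes. Reads of Ddb2 are uncertain, since 23.8% of its exon length overlaps Acp2 on the other strand and whether reads were counted by strand was not stated.

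Within WT glands 0 members were called (0% of all genes), and within Cip2a-/- glands 0 members (0.0129% of all genes), with 0 by DESeq2 and limma voom in both. WT glands had 1 member higher at an unadjusted p under 0.05 (2.91% of all genes were higher, 1.32% lower and 4.23% either), which was Mdc1 at a log2 fold change of 0.46 ± 0.19. Msh6 came next at 0.39 ± 0.19, with 33.1, 31.1 and 37.4 CPM at 2 weeks against 28.5, 23.2 and 25.9 CPM untreated. Cip2a-/- glands had 4 members lower (2.47% of all genes were lower, 2.07% higher and 4.53% either): Mdc1 at -0.48 ± 0.19, Ddb2 at -0.50 ± 0.20, Rad54l at -1.38 ± 0.61 and Bard1 at -1.23 ± 0.55.

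The difference in Mdc1 thus had opposite signs in the genotypes: 37.2, 36.3 and 30.8 CPM at 2 weeks against 49.1, 51.5 and 45.1 CPM untreated in Cip2a-/- glands, and 49.7, 40.6 and 48.4 CPM against 33.7, 30.5 and 36.6 CPM in WT glands. Within each genotype the libraries of the 2 conditions did not overlap, but the share of all genes that did so was not counted. Between the genotypes at 2 weeks, also 3 libraries against 3, 6.76% of all genes lay without overlap above and 6.41% below. The interaction of genotype and DMBA for Mdc1 was -0.94 ± 0.27 on the log2 scale (adjusted p = 0.999 by edgeR), and it was not called. Rad54l had the next smallest p, with 1.30, 1.52 and 1.21 CPM in Cip2a-/- and 2.02, 1.16 and 1.64 CPM in WT glands at 2 weeks (interaction -2.13 ± 0.86, adjusted p = 0.999). In all, 0 members and 0% of all genes were called in this interaction, 0 members by DESeq2 or limma voom, and 4 members were lower at an unadjusted p under 0.05 (1.63% of all genes). Those 4 became 11 without Cip2a-/- untreated library 1, and 1 or 2 without Cip2a-/- untreated library 2, WT untreated library 2, any WT 2-week library or Cip2a-/- 2-week library 3. The 4 lower in Cip2a-/- glands became 10 without untreated library 1, 1 without untreated library 2 or 3, 2 without 2-week library 1 and 0 without 2-week library 3. The 1 higher in WT glands ranged from 0 to 3 over the libraries left out, and the 1 in the averaged comparison from 0 to 2.

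At the endpoint against untreated glands, averaged over the genotypes, edgeR called 0 members, beside 0.252% of all genes. Limma voom called 0, and DESeq2 called 2, Xrcc1 (adjusted p = 0.00292) and Chek2 (adjusted p = 0.0445). There were 3 members higher (9.51% of all genes) and 2 lower (7.40%) at an unadjusted p under 0.05, where 16.9% of all genes lay. Xrcc1 had the smallest p, with 59.2 to 74.6 CPM in the 6 endpoint libraries against 44.7 to 58.0 CPM in the 6 untreated ones, without overlap (0.607% of all genes), a log2 fold change of 0.37 ± 0.089 (adjusted p = 0.0896). Chek2 had 12.2, 10.6 and 7.08 CPM in Cip2a-/- and 10.7, 11.6 and 9.48 CPM in WT endpoint glands, against 12.1, 22.2 and 11.1 CPM in Cip2a-/- and 17, 16 and 17.1 CPM in WT untreated glands (log2 fold change -0.63 ± 0.20, adjusted p = 0.145). The count of 5 became 9 without WT endpoint library 1 and 8 without Cip2a-/- endpoint library 1. The other 3 were Ercc1 at 0.49 ± 0.18, Rad18, the ligase that marks the sliding clamp at stalled forks, at 0.53 ± 0.23, and Rad50, the long coiled-coil subunit of the complex that binds ends, at -0.58 ± 0.19.

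Within each genotype the cycle-linked genes had opposite signs. Their median log2 fold change was -0.67 in Cip2a-/- and 0.74 in WT glands, where the medians over all genes were -0.04 and 0.08. Called members were 0 in Cip2a-/- (0% of all genes) and 0 in WT (0.0323% of all genes) by edgeR and by limma voom. DESeq2 called 2 in Cip2a-/-, Ercc1 and Xrcc1 (adjusted p = 0.0274 each), and 1 in WT, Xrcc6 (adjusted p = 0.0111). By an unadjusted p under 0.05, Cip2a-/- glands had 3 members higher (7.65% of all genes) and 9 lower (7%), and WT glands had 9 higher (6.58%) and 2 lower (5.47%).

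In Cip2a-/- glands the smallest p belonged to Ercc1, with 29.7, 56.7 and 75.5 CPM at the endpoint against 23.6, 29.3 and 27.4 CPM untreated (log2 fold change 1.01 ± 0.26, adjusted p = 0.263 by edgeR). All endpoint libraries lay above the untreated ones. How many of all genes lacked overlap within a genotype, here and for Rad50 below, was not counted. Xrcc1 followed, at 0.45 ± 0.13 (adjusted p = 0.263). In WT glands it belonged to Xrcc6, with 138, 33.8 and 82.0 CPM at the endpoint against 36.1, 28.9 and 31.7 CPM untreated (log2 fold change 1.39 ± 0.34, adjusted p = 0.173 by edgeR). Rad50 had 22.2, 36.9 and 22.5 CPM at the endpoint against 39.6, 63.8 and 53.6 CPM in WT untreated glands (log2 fold change -0.94 ± 0.27, adjusted p = 0.227), without overlap. Removing single libraries moved these counts widely. The 12 in Cip2a-/- glands became 6 without Cip2a-/- untreated library 2 and 17 without Cip2a-/- untreated library 1, and the 11 in WT glands became 4 without WT untreated library 2 or 3, 6 without WT endpoint library 1 and 7 without WT endpoint library 2. Without WT endpoint library 2 edgeR called Xrcc6 in WT glands (adjusted p = 0.0118), and without Cip2a-/- endpoint library 1 it called Ercc1 in Cip2a-/- glands. In the averaged comparison it called Xrcc1 without WT endpoint library 1 and Ercc1 without Cip2a-/- endpoint library 1.

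The interaction at the endpoint put a number on the opposite signs. By edgeR, DESeq2 and limma voom 0 members were called, beside 0% of all genes by edgeR. An unadjusted p under 0.05 was reached by 18 members (10% of all genes), of which 16 had a more negative difference from untreated glands in Cip2a-/- than in WT (6.79% of all genes) and 2, Ercc1 and Xpa, a more positive one (3.24%). Of the 16, 12 were cycle-linked, and the median over the 18 cycle-linked genes was -1.47, against -0.07 over all genes. Xrcc6 had the smallest p (-1.92 ± 0.47, adjusted p = 0.490 by edgeR), and Rad54l was next (-3.08 ± 0.87, adjusted p = 0.490 by edgeR). Rad54l had 1.55, 0.537 and 1.33 CPM in Cip2a-/- and 4.31, 1.86 and 1.77 CPM in WT endpoint glands. This contrast uses the same untreated libraries as the comparison of untreated glands, so the high Cip2a-/- untreated libraries 2 and 3 enter both. Cell cycle genes had interactions of the same sign, with medians of -1.51 over 30 S phase and -2.28 over 30 G2 and M phase genes. Without WT endpoint library 1 and Cip2a-/- untreated library 3 together, 9 members were more negative and 1 more positive, with a median of -0.99 over the cycle-linked genes.

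Averaged over the 3 conditions, Cip2a-/- against WT, 0 members were called by edgeR, DESeq2 or limma voom, beside 0.00646% of all genes by edgeR, and 0 were at an unadjusted p under 0.05 (0.917% of all genes). The 0.00646% was again Cip2a alone (adjusted p = 0.000325 by edgeR). The smallest p values were those of Xrcc1 (log2 fold change -0.13 ± 0.073, adjusted p = 1) and Xrcc6 (-0.31). The 0 became 1 or 2 without Cip2a-/- untreated library 2, WT endpoint library 1 or WT endpoint library 2. The median log2 fold change was 0.09 over the members and 0.01 over all genes.

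Another 101 genes of DNA repair and checkpoint pathways were set beside the 35, of which 100 passed the filter. Between the endpoint and 2 weeks, 7 were called higher and 4 lower, or 11% of those tested, beside the 13.4% of all genes. The higher ones were Alkbh3, which removes alkyl groups, Paxx, an end joining factor, Cdc25a, the phosphatase that releases the S phase kinase, Ercc2, a helicase of excision repair, Fance, of the Fanconi anaemia core, Fen1, the flap nuclease, and Mad2l2, a subunit of a translesion polymerase, with log2 fold changes from 0.41 to 0.72. The lower ones were Polk, a translesion polymerase that bypasses bulky adducts, at -1.51 ± 0.26, Mgmt, which removes alkyl groups from guanine, at -1.31 ± 0.25, the ubiquitin ligase gene Rnf168 at -0.38 ± 0.11 and the helicase gene Wrn at -0.46 ± 0.14. With the length and GC trend removed Polk and Mgmt remained called (adjusted p = 0.0136 and 0.0133), as did Ercc2 (adjusted p = 0.0251) and Cdc25a. The other 7 of these 11, Alkbh3, Paxx, Fance, Fen1, Mad2l2, Rnf168 and Wrn, lost their call, and Rnf8 gained one.

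Polk and Mgmt were high at 2 weeks. Polk had 43.2, 21.8 and 16.1 CPM in Cip2a-/- and 16.4, 23.7 and 30.3 CPM in WT glands at 2 weeks, against 12.1, 10.5 and 12.2 CPM in Cip2a-/- and 8.80, 10.4 and 14.6 CPM in WT untreated glands. All 6 libraries of 2 weeks lay above the 6 untreated ones, as for 0.711% of all genes. The log2 fold change was 1.14 ± 0.25 (adjusted p = 0.197 by edgeR and 0.00462 by DESeq2). Mgmt had 39.5, 38.4 and 27.8 CPM in Cip2a-/- and 13.3, 15.2 and 29.6 CPM in WT glands at 2 weeks, against 12.5, 12.7 and 11.5 CPM in Cip2a-/- and 16.7, 13.7 and 14.0 CPM in WT untreated glands. Its log2 fold change was 0.96 ± 0.25 (adjusted p = 0.399 by edgeR and 0.0474 by DESeq2), with overlap in WT. Rev3l, the catalytic subunit of a translesion polymerase, was next at 0.69 ± 0.26 (adjusted p = 0.718).

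In the other 2 averaged comparisons 0 of the 100 were called by edgeR. For the endpoint against untreated glands the smallest p values were those of Xrcc3, a gene of homologous recombination (log2 fold change 0.68 ± 0.21), Cdc25a (0.45 ± 0.15) and Mad2l2 (0.42 ± 0.15), with adjusted p of 0.139 to 0.184. There, 8 of the 100 were at an unadjusted p under 0.05, beside 16.9% of all genes. Between the genotypes the smallest p values were those of Neil1, a glycosylase that removes oxidised bases (-0.28 ± 0.12), Ercc2 (-0.14 ± 0.082) and Alkbh3 (-0.15 ± 0.092), each at an adjusted p of 1. Of the 100, 1 was at an unadjusted p under 0.05, beside 0.917% of all genes.

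Some members carry limits of their own. Prkdc and Polq lie on chromosome 16 with Cip2a, 33.2 and 11.9 Mb from it, and no source at hand states which strain's alleles the Cip2a-/- mice carry there. Exons of Fanci, Rad54l and Fanca overlap genes on the other strand over 16%, 15.4% and 10.5% of their length, and those of Xrcc6 over 7.69%. The 10 members whose unadjusted p was not under 0.05 in any comparison averaged over genotypes, between genotypes, against untreated glands or of an interaction were Atm, Atr, Brca2, Brip1, Nbn, Xrcc2, Fanca, Fancd2, Xrcc5 and Xpc. Of these, Atr and Brca2 were called with the length and GC trend removed, and Atm and Xrcc2 with a library left out, as given above.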

How the data were processed

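The authors deposited raw read counts per gene symbol for 18 libraries. Per the submitters' processing notes, bcl2fastq 2.17, STAR 2.5.2b, Subread 1.5.1 and mm10 were used. The kit keeps strand, per the labels' protocols, but how strand was treated in counting, and with which annotation, was not stated. Genes were filtered with filterByExpr (minimum count 10, minimum total 15), which left 15482, scaled by TMM and tested with edgeR 4.0.16 (R 4.3.3) by quasi-likelihood F-tests in 1 model of the 6 groups, with Benjamini-Hochberg adjustment over all genes at 0.05. CPM values are counts scaled by library size and TMM factor. Alternatives were DESeq2 1.42.0, limma 3.58.1 voom, other scalings, no filter, the compared groups alone, a replicate block, each library left out and, chosen after seeing the data, removal of per-library trends on length and GC content and removal of WT endpoint library 1 with Cip2a-/- untreated library 3. The fits were tested on simulated data. Transcript lengths and gene positions are from GENCODE on GRCm38, and promoters from RefSeq.

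The members and lists were chosen with earlier results of these data known. Values per library were printed for Topbp1, Mdc1, Ddb2, Xpc, Brca1 and Chek1, for members called and for the 2 smallest p values of each comparison. Of the other repair genes, those called and the 3 smallest p values of each averaged comparison were named. Ercc1, Xpa and Rad54l in further comparisons were chosen after their values were seen.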

Additional observations from a re-analysis of the deposited data

How the results depend on the processing

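The number of members called was 0 in every comparison but that of endpoint with 2 weeks under edgeR with each scaling, without the filter, with the compared groups alone, with the length and GC trend removed and by limma voom. DESeq2 called 1 member between the genotypes at the endpoint, 1 in WT and 2 in Cip2a-/- glands at the endpoint against untreated, 2 in that comparison averaged, and 7 between endpoint and 2 weeks. That last count was 4 in the fit reported, 1 with the compared groups alone, 3 with the trend removed and 1 to 7 with a library left out. With a library left out, the count was 0 to 1 between the genotypes at the endpoint, in WT, in Cip2a-/- and in all glands at the endpoint against untreated, and in the interaction at the endpoint. The cause was not tested.

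With the trend removed the median log2 fold change of the members was -0.219 in Cip2a-/- glands (-0.53 in the fit reported) and 0.198 averaged (-0.02), both at the endpoint against untreated. Between endpoint and 2 weeks Prkdc reversed to 0.068. Topbp1, Mdc1, Atm, Atr, Brca1, Brip1, Rad51c and Nbn, not called in the fit reported, changed sign in the same direction. The libraries share replicate numbers, but correlations of same-numbered libraries ran from -0.4678 to 0.6597, so the numbers were not taken as pairs. With the replicate block 4 members were called between endpoint and 2 weeks and 0 in the other comparisons. Low counts limit several members. The lowest library held 3 reads for Exo1, 5 for Polq, 8 for Clspn and Brip1, 9 for Rad54l and 11 for Chek1.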
